A study of Mus musculus with 6 samples.

Results

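The intercalated disc joins cardiomyocytes end to end. Desmosomes anchor the desmin filaments there, adherens junctions anchor the sarcomeric actin, and gap junctions carry the electrical impulse from cell to cell. In the mammalian heart the first pair of junction types is partly mixed into a common structure, the area composita, and inherited defects of the desmosomal genes are a known cause of arrhythmogenic cardiomyopathy. The transcripts of 10 genes of this structure were followed here, given as a list of names with no threshold on their values, out of 54232 genes in the count files. The list holds the desmosomal genes *Dsp*, *Pkp2*, *Jup*, *Dsg2* and *Dsc2*, the adherens junction genes *Cdh2*, *Ctnna3* and *Vcl*, the gap junction gene *Gja1* and the scaffold gene *Tjp1*. All 10 symbols matched a single Ensembl gene, and all 10 passed the filter on low counts.

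RNA came from the heart ventricle of wild-type C57BL/6J mice on western diet (WD), 3 given Tributyrin and 3 given PBS, with 1 library per mouse. Tributyrin is a triglyceride that releases butyrate. Per the study's methods the diet had run for 15 weeks when needle feeding began, and the mice then received for 3 weeks either the vehicle, named PBS in the labels, or Tributyrin (5 g/kg of body weight). The diet is shared by both groups, so that the comparison concerns the treatment and not the diet, and the labels give neither age nor sex of the single mice. That each library is 1 mouse is taken from the study's group size, since the labels only number the samples. The comparison asks which transcripts of the obese heart differ with Tributyrin.

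The libraries held between 20369746 and 32734485 counts on genes, and mitochondrial transcripts took 23.6% to 28.8% of them. No library stood apart by sex, with *Ddx3y* of the Y chromosome between 1802 and 2241 normalized counts and *Xist* at no more than 6.24. By these transcripts all 6 mice were male, while the study's methods name male and female mice. All 10 ventricular cardiomyocyte markers were tested, led by *Actc1* at 6695 RPKM (counts per kilobase of exon, scaled for library size). Their summed level was 59270 to 60330 CPM (counts scaled for library size) in the PBS mice and 56930 to 61730 CPM in the Tributyrin mice. Of these markers 4 of 10 had an unadjusted p under 0.05 by edgeR (3 higher and 1 lower). Over all genes tested 4.25% had such a p (1.97% higher and 2.28% lower with Tributyrin), and 50.4% of estimates were below 0. Atrial markers were uneven, with a summed level of 89.1 to 234.4 CPM with PBS and 59.7 to 99.0 CPM with Tributyrin, and 7 of 7 tested had estimates below 0 with Tributyrin (median log2 fold change -1.86, 5 with an unadjusted p under 0.05), although *Bmp10* had almost no counts in any library. Fibroblast markers summed to 941.7 to 1070 CPM with PBS and 845.6 to 1030 CPM with Tributyrin, with 6 of 8 estimates below 0 (median -0.23) and 2 of them at an unadjusted p under 0.05. Of 10 endothelial markers 0 had such a p, and their sums were 854 to 886.1 CPM and 815.8 to 911.1 CPM. The summed ranges also overlapped for markers of smooth muscle and pericytes, macrophages, mesothelium, Schwann cells and red blood cells. The part of these differences in the values below was not tested, and in bulk tissue fewer cells of a type and less RNA per cell cannot be told apart.

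With Tributyrin, 0 of the 10 junction genes were called at an FDR of 10% (edgeR, quasi-likelihood test, Benjamini-Hochberg adjusted), and the same held for all 14133 genes tested (0%). At an unadjusted p under 0.05 there were 0 of 10, against 4.25% of all genes tested (1.97% higher and 2.28% lower with Tributyrin), and DESeq2 and limma-voom also gave 0 members at either threshold. In every member the normalized counts of the groups overlapped (0 of 10 apart, against 8.91% of all genes tested, 4.26% higher and 4.65% lower). The median log2 fold change of the 10 genes, Tributyrin over PBS, was 0.001, beside -0.001 over all genes. Of the estimates, 6 were above 0 and 4 below with TMM scaling, where 49.6% of all genes were above 0 and 50.4% below, but 3 and 7 with counts scaled by library size alone.

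The members differed far more in level than they did between the groups. *Dsp*, which encodes desmoplakin, the plaque protein that ties the desmosome to desmin, had the highest level at 116.6 RPKM, above 98% of the genes tested. *Jup* (plakoglobin, shared by desmosomes and adherens junctions) followed at 45.8, then *Cdh2* (N-cadherin, the transmembrane adhesion molecule of the adherens junction) at 39.0, *Gja1* (connexin 43, the main gap junction protein of the ventricle) at 32.4 and *Pkp2* (plakophilin 2, which links desmosomal cadherins to desmoplakin) at 28.9 RPKM. A lower set held *Dsg2* (desmoglein 2) at 12.8, *Tjp1* (ZO-1, a scaffold at the edge of gap junctions) at 11.9, *Vcl* (vinculin, which links catenins and integrins to actin) at 11.1, *Dsc2* (desmocollin 2) at 7.76 and *Ctnna3* (αT-catenin, an α-catenin of the area composita) at 5.68 RPKM, still above 66.9% of genes tested. *Dsp* lay above *Jup*, *Jup* above *Cdh2*, *Pkp2* above *Dsg2*, *Vcl* above *Dsc2* and *Dsc2* above *Ctnna3* without overlap of their ranges over the 6 libraries. The neighbours *Cdh2* and *Gja1*, *Gja1* and *Pkp2*, *Dsg2* and *Tjp1*, and *Tjp1* and *Vcl* overlapped, though *Tjp1* was the higher of its pair with *Vcl* in 6 of 6 libraries.

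These levels depend on the length used. Merged exons of *Gja1* span 10257 bases and its longest annotated transcript 3889, and with the latter *Gja1* was at 85.3 RPKM and at rank 3, ahead of *Cdh2* at 65.0. *Vcl* then passed *Tjp1* (17.2 and 13.2 RPKM) and *Ctnna3* passed *Dsc2* (11.2 and 8.84 RPKM), while *Dsp* and *Jup* kept ranks 1 and 2.

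**Figure D1:**
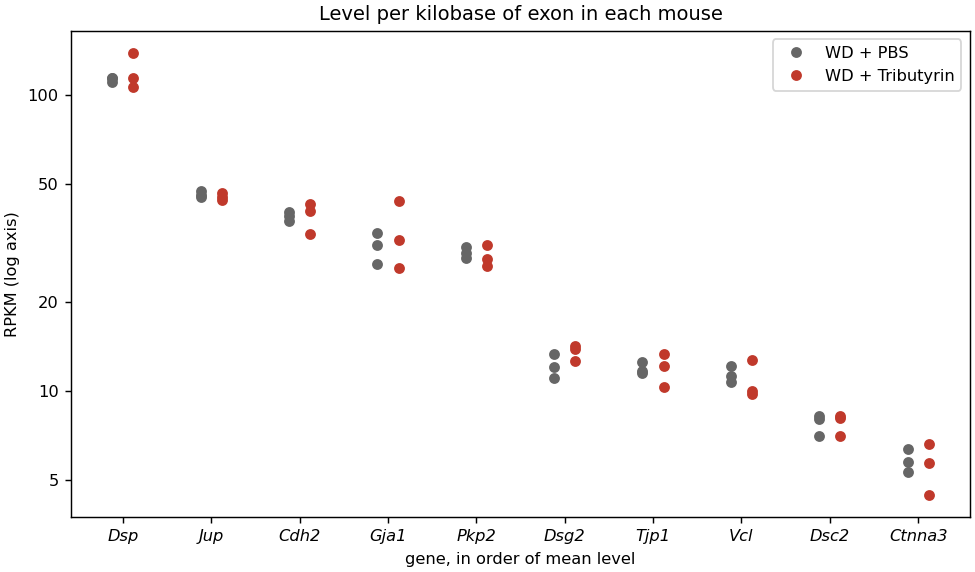
Level of each junction gene in each mouse, as RPKM on a log axis, with genes in order of their mean over the 6 mice. *Dsp* lies above 100 RPKM in each mouse, and grey (PBS) and red (Tributyrin) points of every gene overlap.

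Promoter windows from RefSeq (GRCm38.p6) were used for 6 members, *Tjp1*, *Gja1*, *Ctnna3* (3 starts), *Jup*, *Dsp* and *Vcl*. The 250 bases before each start were searched on both strands. The other members were left out of this search, so the motif counts concern these 6 only and not the whole list. The GC box GGGCGG was found for 5 of these 6 members, in 5 of 8 windows, and in 32.7% of all 32851 windows of that length, expressed or not. The only one of the 6 without it was *Gja1*, whose window alone held the AP-1 motif TGAGTCA (4.46% of all windows) and the GATA-type motif AGATAA (9.99% of all windows). A CArG box, the motif bound by serum response factor, was found in the *Vcl* window and in 1.47% of all windows, and TATAAA in 1 of the *Ctnna3* windows and in 12.4% of all windows. Composition ranged from 72.4% GC for *Dsp* to 44.8% for a *Ctnna3* window, with 50% for *Gja1*. The 150 bases before the start are shown for the member with the highest level and for the member with the widest spread between mice, since these windows differ most plainly in their motifs. Capitals mark every match to the motifs above, on either strand, and no match in them overlaps another. A match is a description of the letters and not a binding site.
Dsp, chr13:38151144-38151293, plus strand: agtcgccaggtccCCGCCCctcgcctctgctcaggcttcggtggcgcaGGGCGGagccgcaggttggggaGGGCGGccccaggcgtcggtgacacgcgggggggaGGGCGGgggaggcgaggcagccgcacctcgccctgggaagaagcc
Gja1, chr10:56377150-56377299, plus strand: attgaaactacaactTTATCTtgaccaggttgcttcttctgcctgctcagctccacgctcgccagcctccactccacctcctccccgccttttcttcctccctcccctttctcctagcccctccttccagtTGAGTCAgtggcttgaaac

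*Dsp* had the smallest spread of the members among the PBS mice (coefficient of variation 1.6%) and a wider one with Tributyrin (13.7%). The gene (ENSMUSG00000054889, chr13:38151294-38198577, plus strand) had 29097, 28275 and 29050 normalized counts in the PBS mice and 28986, 35114 and 27129 in the Tributyrin mice. Tributyrin replicate 2 stood above the other 5 mice and replicate 3 below them, with replicate 1 among the PBS values. The mean was 28810 ± 461.5 (SD, n = 3) with PBS and 30410 ± 4178 (SD, n = 3) with Tributyrin, and the log2 fold change was 0.08 (standard error 0.095, 95% interval -0.13 to 0.29, edgeR adjusted p = 0.999). Without Tributyrin replicate 2 it turned to -0.04, and without replicate 3 it was 0.16.

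*Jup* (ENSMUSG00000001552, chr11:100368958-100397763, minus strand) varied least of the 10. Its normalized counts were 8035, 7667 and 7752 with PBS and 7661, 7895 and 7490 with Tributyrin, with coefficients of variation of 2.46% and 2.65%. The log2 fold change was -0.02 (standard error 0.065), and its interval, from -11% to 8.63% on the linear scale, was the narrowest of the members. With library size as the only scaling its groups no longer overlapped, at lower values with Tributyrin, but under that scaling 11.5% of all genes did not overlap (9.72% of all genes lower with Tributyrin), and the median log2 fold change of all genes was -0.07. *Pkp2* (ENSMUSG00000041957, chr16:16213318-16272712, plus strand) had 4113, 4309 and 3967 normalized counts with PBS and 3732, 4360 and 3947 with Tributyrin. The Tributyrin mice spanned the PBS mice on both sides, and the log2 fold change was -0.04 (standard error 0.078).

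The desmosomal cadherins form the adhesive bridge between the cells, and they gave the member with the smallest unadjusted p. *Dsg2* (ENSMUSG00000044393, chr18:20558074-20604521, plus strand) had 2901, 2401 and 2618 normalized counts with PBS and 3077, 2999 and 2740 with Tributyrin. Both Tributyrin replicates 1 and 2 lay above every PBS mouse, while replicate 3 lay below PBS replicate 1. The means were 2640 ± 250.9 and 2939 ± 176.3 (SD, n = 3 each), 11.3% higher with Tributyrin, and the log2 fold change was 0.16 (standard error 0.086, 95% interval -0.03 to 0.35). The unadjusted p from edgeR across genes was 0.0988 and the adjusted p 0.999. The estimate stayed above 0 in all 15 alternatives, from 0.09 with library size alone to 0.24 without PBS replicate 1. In that last fit *Dsg2* was the 1 member with an unadjusted p under 0.05 (0.0307 by edgeR, adjusted p = 0.997), as were 4.9% of all genes.

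*Dsc2* (ENSMUSG00000024331, chr18:20030633-20059554, minus strand) had a log2 fold change of 0.004 (standard error 0.091). It had 1142, 974.7 and 1112 normalized counts with PBS and 1135, 1117 and 977.3 with Tributyrin, the mean was 1076 in both groups, and the 95% interval ran from -12.9% to 15.3%. The ratio of *Dsc2* to *Dsg2* within a library does not depend on the scaling between libraries. Its log2 value was -1.35, -1.30 and -1.24 with PBS and -1.44, -1.43 and -1.49 with Tributyrin, so that every Tributyrin mouse lay below every PBS mouse, with a difference of -0.16 (standard error 0.037). Of the 9 ratios formed, 2 did not overlap between the groups, and 9.47% of all pairs of tested genes with counts in each library did the same.

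The adherens junction genes had estimates close to 0. *Cdh2* (ENSMUSG00000024304, chr18:16588877-16809246, minus strand) had 8561, 7984 and 8275 normalized counts with PBS and 9052, 8578 and 7182 with Tributyrin. Replicate 1 of the Tributyrin mice was the highest of the 6 and replicate 3 the lowest, the means were 8273 and 8271, and the interval ran from -12.9% to 15%. Against *Cdh5*, the cadherin of endothelial cells, the log2 ratio was 0.94 ± 0.13 with PBS and 0.97 ± 0.18 with Tributyrin (SD, n = 3 each). *Ctnna3* (ENSMUSG00000060843, chr10:63430098-65003667, plus strand) had 1089, 1005 and 1200 normalized counts with PBS and 1079, 1254 and 846.6 with Tributyrin. Tributyrin replicates 2 and 3 were the highest and the lowest of the 6, and the log2 fold change was -0.05 (standard error 0.131). It was 0.10 without Tributyrin replicate 3 and -0.19 without replicate 2.

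The related α-catenin *Ctnna1*, which is expressed in most tissues, was far more abundant than *Ctnna3*. The ratio of *Ctnna3* to *Ctnna1* per length of merged exons was between 0.051 and 0.0751 over the 6 libraries. Its log2 difference of -0.11 between the groups (standard error 0.171) was within the spread. For *Jup* against its relative *Ctnnb1* (β-catenin, the partner of N-cadherin that also serves Wnt signalling) the same ratio was between 0.806 and 0.965. The log2 ratio of their counts, not divided by length, ran from -0.001 to 0.258, so their order depends on the length used. The log2 difference between the groups was 0.08 (standard error 0.082), again with overlapping groups.

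*Vcl* (ENSMUSG00000021823, chr14:20929398-21033676, plus strand) had 2307, 2416 and 2609 normalized counts with PBS and 2151, 2728 and 2096 with Tributyrin. Replicates 1 and 3 of the Tributyrin mice lay below every PBS mouse and replicate 2 above them. Its log2 fold change was -0.07 (standard error 0.105), and without Tributyrin replicate 2 it was -0.20 (unadjusted p = 0.0237 and adjusted p = 0.463 by edgeR), in a fit where 9.56% of all genes had an unadjusted p under 0.05. *Vcl* shares 2090 exonic bases with *Ap3m1* on the opposite strand, a gene with 584 to 942 counts per library, and since the strand setting of the counting is not given, its counts are uncertain in that stretch. The ratio of *Vcl* to *Tln1*, which encodes talin 1, the integrin-binding partner of vinculin, was the other ratio without overlap. Its log2 values were -0.82, -0.90 and -0.80 with PBS and -0.74, -0.79 and -0.74 with Tributyrin, a difference of 0.08 (standard error 0.036).

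*Gja1* (ENSMUSG00000050953, chr10:56377330-56402513, plus strand) varied most between mice. Its normalized counts were 9191, 7239 and 8370 with PBS and 11822, 8684 and 7020 with Tributyrin. The highest and the lowest of the 6 mice were both Tributyrin mice, and the coefficient of variation was 26.6% with Tributyrin and 11.9% with PBS. At these depths the relative SD from counting was no more than 1.28%, and the biological coefficient of variation that edgeR fitted was 14.6%, where the trend at that level was 9.12%. The mean was 11% higher with Tributyrin, but the 95% interval ran from -13.5% to 42.8%, the widest of the 10, and the log2 fold change of 0.15 (standard error 0.163) became -0.07 without Tributyrin replicate 1 and 0.32 without replicate 3. *Gja1* was 8.02 to 14.3 times as abundant per length of merged exons as *Gjc1* (connexin 45, a connexin of the conduction system), a ratio that overlapped between the groups.

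*Tjp1* (ENSMUSG00000030516, chr7:65296165-65527781, minus strand), whose protein ZO-1 binds the tail of connexin 43, had 2397, 2361 and 2570 normalized counts with PBS and 2485, 2716 and 2120 with Tributyrin. Tributyrin replicates 2 and 3 were the highest and the lowest of the 6, and the interval of the fold change was -13.5% to 15.7%. The log2 ratio of *Gja1* to *Tjp1* was 1.75 ± 0.17 with PBS and 1.89 ± 0.32 with Tributyrin (SD, n = 3 each).

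**Figure D2:**
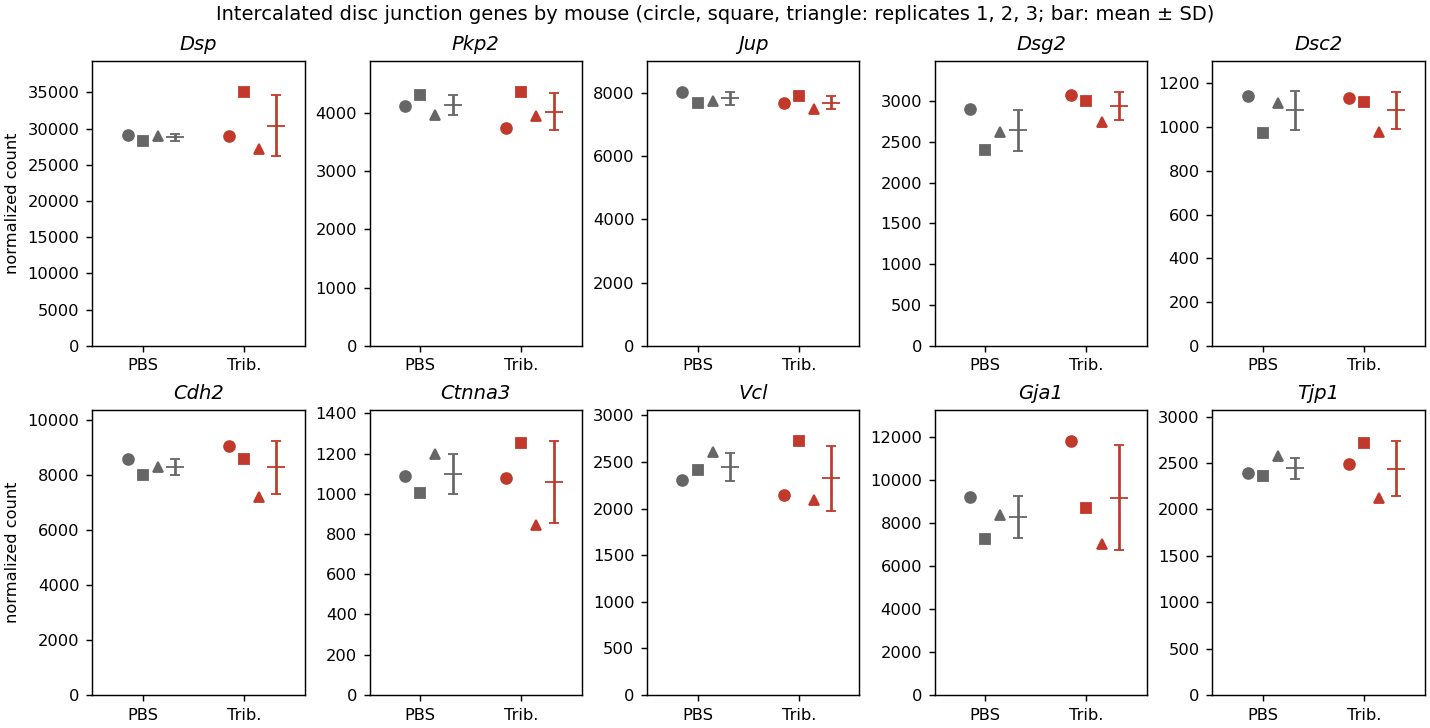
Normalized counts of the 10 junction genes in each mouse, on axes that start at 0, with the mean and SD of each group of 3 beside the points. Groups overlap in each panel, and Tributyrin replicate 3 (red triangle) is the lowest mouse for 7 genes.

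For all 10 genes the 95% interval of the fold change lay within 1.5-fold in either direction, as it did for 71.7% of all genes tested. Between 738 and 38430 reads were counted on a member in a library, so that counting error gave a relative SD of at most 3.68%. The intervals rest on a variance between mice that edgeR draws in part from the trend over all genes. That trend had 6.31 of the 10.3 degrees of freedom. For *Jup* the fitted biological coefficient of variation was 7.19%, beside coefficients of variation of 2.46% and 2.65% in the groups. Exact two-sided permutation tests of the normalized counts gave p from 0.2 for *Dsg2* to 1, and 3 mice against 3 allow no p under 0.1.

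**Figure D3:**
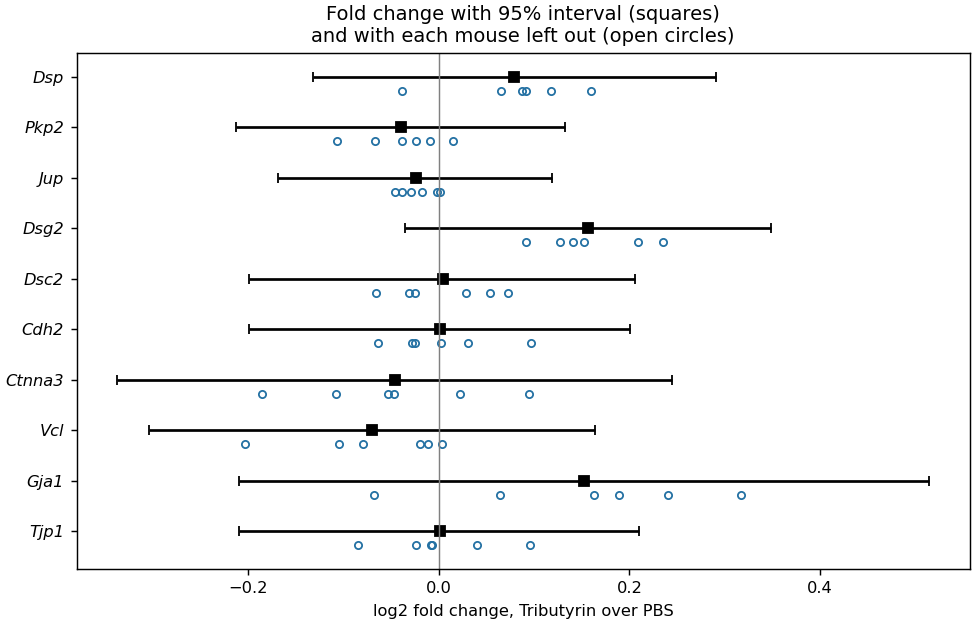
Log2 fold change of each junction gene, Tributyrin over PBS, with its 95% interval from edgeR (squares and bars) and the value with each mouse left out in turn (open circles). Each interval includes 0, and the one of *Gja1*, from -0.21 to 0.51, is the widest.

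Most members were low in 1 Tributyrin library and high in another. Tributyrin replicate 3 was the lowest of the 6 libraries for 7 of the 10 genes and lay below its group mean for all 10, with a median deviation of -0.15 on the log2 CPM scale, while 22.1% of all genes tested were lowest in that library. Tributyrin replicate 2 was the highest library for 5 genes (16.7% of all genes tested) and lay above its group mean for 9, with a median deviation of 0.10, the exception being *Gja1* at -0.04. In Tributyrin replicate 1, 6 genes lay above the group mean and 4 below. The coefficient of variation was larger with Tributyrin than with PBS for 8 of the 10 genes and for 61.6% of all genes tested. Its median over the members was 12% with Tributyrin and 5.42% with PBS, and over all genes 10.8% and 8.29%.

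Transcript length moved with this pattern. Over all 2030 genes tested whose longest transcript had 6 kb or more, the median deviation was -0.11 in Tributyrin replicate 3 and 0.11 in replicate 2, and over the 3184 genes with transcripts under 2 kb it was 0.08 and -0.07. None of the members had a transcript under 2 kb as its longest (0 of 10), 4 were from 2 to 4 kb, 4 from 4 to 6 kb and 2 above. *Gja1* and *Ctnna3*, with the lowest values in replicate 3 relative to the group (-0.36 and -0.31), both belong to the class from 2 to 4 kb, whose median deviation there was 0.02. Their class depends on the length used, since their merged exons span 10257 and 7227 bases. The median of the ventricular cardiomyocyte markers went the other way, with a deviation of 0.11 in replicate 3 and -0.10 in replicate 2. Not every marker did so. *Myh6* and *Ryr2*, named outside the rule, were higher in replicate 2 (568330 and 61205 normalized counts) than in replicate 3 (465640 and 45354). The part of transcript length in the spread of the members was not tested. Without replicate 3 the median log2 fold change of the members was 0.10, with 8 estimates above 0. In that fit *Dsg2* (0.21) and *Gja1* (0.32) had an unadjusted p under 0.05 by edgeR (0.0388 and 0.0404). Both had an adjusted p of 0.999, and 4.57% of the genes tested without that mouse had such an unadjusted p. Without replicate 2 the median was -0.04, with 8 estimates below 0. There *Vcl* (-0.20) had an unadjusted p of 0.0237 and an adjusted p of 0.463 by edgeR, where 9.56% of the genes tested had an unadjusted p under 0.05.

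**Figure D4:**
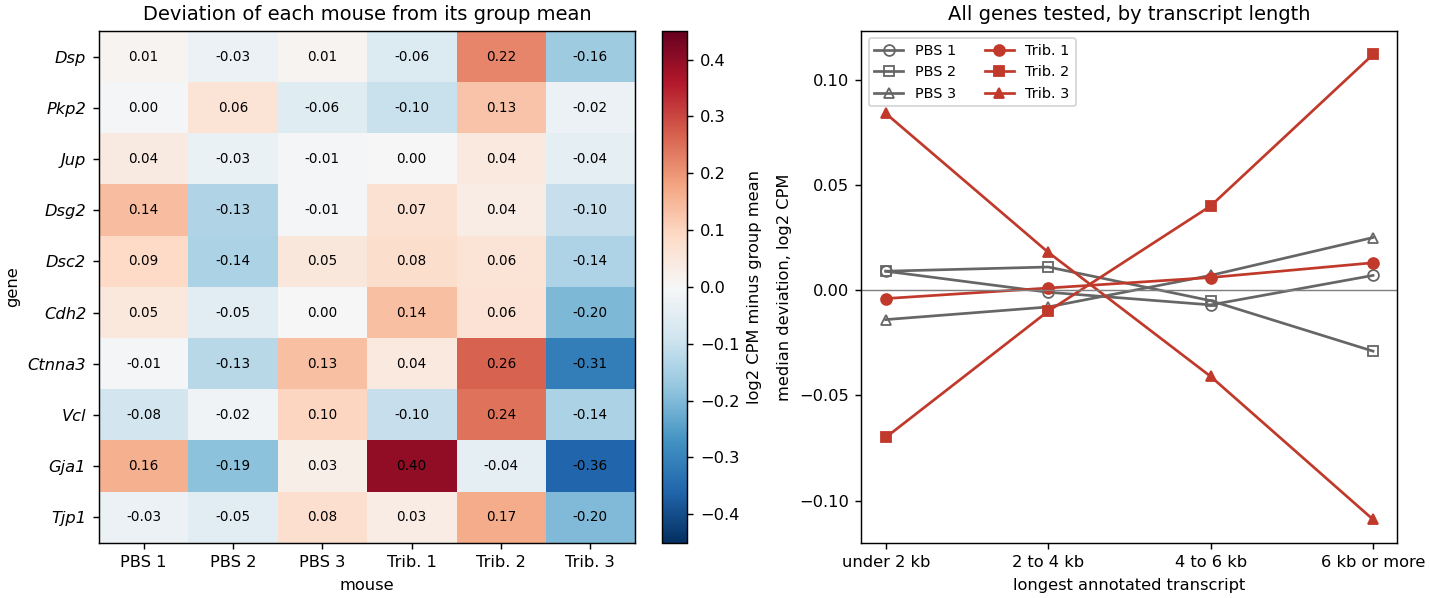
Left, deviation of each mouse from its group mean for each junction gene, in log2 CPM, and right, the median deviation of all genes tested in classes of longest annotated transcript. Tributyrin replicates 2 and 3 deviate in opposite directions for 9 of the 10 genes (not for *Gja1*) and in each length class, and the lines of the other 4 mice stay within 0.03 of 0.

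Beyond the 10 genes, 64 genes of 5 other junction lists were examined, of which 50 passed the filter on low counts. Of these, 0 were called at an FDR of 10% by edgeR, and 3 had an unadjusted p under 0.05, next to 4.25% of all genes. Partners of the adherens junction had 3 estimates above 0 and 12 below, with a median log2 fold change of -0.06. *Tln2* (talin 2, -0.13) and *Nectin2* (an immunoglobulin-like adhesion molecule, 0.18) had the smallest unadjusted p of that list, 0.109 and 0.114 by edgeR. *Actn2*, the α-actinin of the Z-disc, had its highest level with 436.5 RPKM and a log2 fold change of -0.14 (standard error 0.081), followed by *Ctnna1* at 87.0 RPKM and 0.05 (standard error 0.063).

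Among 17 cytoskeletal and scaffold genes of the disc, 7 estimates were above 0 and 10 below. *Prkca*, which encodes protein kinase Cα, was the single gene with an unadjusted p under 0.05. Its normalized counts were 935.5, 973.1 and 1015 with PBS and 847.2, 849.8 and 808.7 with Tributyrin, without overlap, and its log2 fold change was -0.22 (standard error 0.074, unadjusted p = 0.013, adjusted p = 0.999 by edgeR). *Nrap*, which anchors actin at the end of the myofibril, was at -0.18 (standard error 0.105). The most abundant genes of the list were *Fhl2*, a LIM-domain protein, at 1032 RPKM with a log2 fold change of 0.09, and *Des*, the desmin that desmoplakin binds, at 446.0 RPKM and 0.07. The log2 ratio of *Dsp* to *Des* was -0.57 ± 0.16 with PBS and -0.57 ± 0.23 with Tributyrin (SD, n = 3 each). That of *Pkp2* to *Dsp* was -2.80 ± 0.08 and -2.92 ± 0.12.

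The sodium channel complex is clustered at the disc next to the gap junctions. *Cav3* (caveolin 3), a gene of this list, was at 46.4 RPKM with a log2 fold change of 0.11. *Kcnj2*, which encodes the inward rectifier Kir2.1, had 986.4, 991.8 and 1066 normalized counts with PBS and 1392, 1119 and 1153 with Tributyrin, without overlap. Its log2 fold change was 0.27 (standard error 0.094, unadjusted p = 0.0163, adjusted p = 0.999 by edgeR). *Ank3*, which encodes ankyrin-G, a membrane adaptor of the disc, was 2314, 2331 and 2354 with PBS and 2117, 2149 and 2113 with Tributyrin, also without overlap, and its log2 fold change was -0.13 (standard error 0.064, unadjusted p = 0.0633 by edgeR).

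Of the 9 other connexin and pannexin genes 6 were tested, 5 with estimates above 0, and their median log2 fold change was 0.16. *Gja5*, the connexin 40 of atria, conduction system and arterial endothelium, had 181.9, 151.2 and 191.3 normalized counts with PBS and 260.0, 279.6 and 158.3 with Tributyrin, and its log2 fold change was 0.43 (standard error 0.199). Tributyrin replicates 1 and 2 lay above all PBS mice and replicate 3 among them. *Gja3* and *Gja4*, the most abundant of the list at 8.10 and 5.41 RPKM, were at 0.22 (standard error 0.114) and 0.11 (0.137). *Gjd3*, named outside the rule after its values were seen, did not pass the filter, with 8, 26 and 12 counts with PBS and 3, 1 and 3 with Tributyrin. Without a filter on low counts it was the 1 gene of these lists called at an FDR of 10% (edgeR adjusted p = 0.021), where 0.653% of the 25581 genes then tested were called, 0.403% as lower, and 0 members. DESeq2 gave *Gjd3* no adjusted p. The edgeR fit without a filter took the variance of each gene from the trend over genes alone. Its prior degrees of freedom, the weight of that trend, were infinite, against 6.31 in the main fit.

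Of 14 junction genes known from epithelia and brain 3 were tested, *Perp*, *Ppl* and *Evpl*, and 11 fell under the filter, among them the epithelial desmosomal cadherins *Dsg3* and *Dsc3*, named here outside the rule, with no more than 8.22 and 1.83 normalized counts in a library. *Perp*, a tetraspan membrane protein of desmosomes, was at 67.9 RPKM with a log2 fold change of -0.02, and *Ppl* (periplakin) was at 1.34 RPKM and 0.36 (standard error 0.216, unadjusted p = 0.128 by edgeR).

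**Figure D5:**
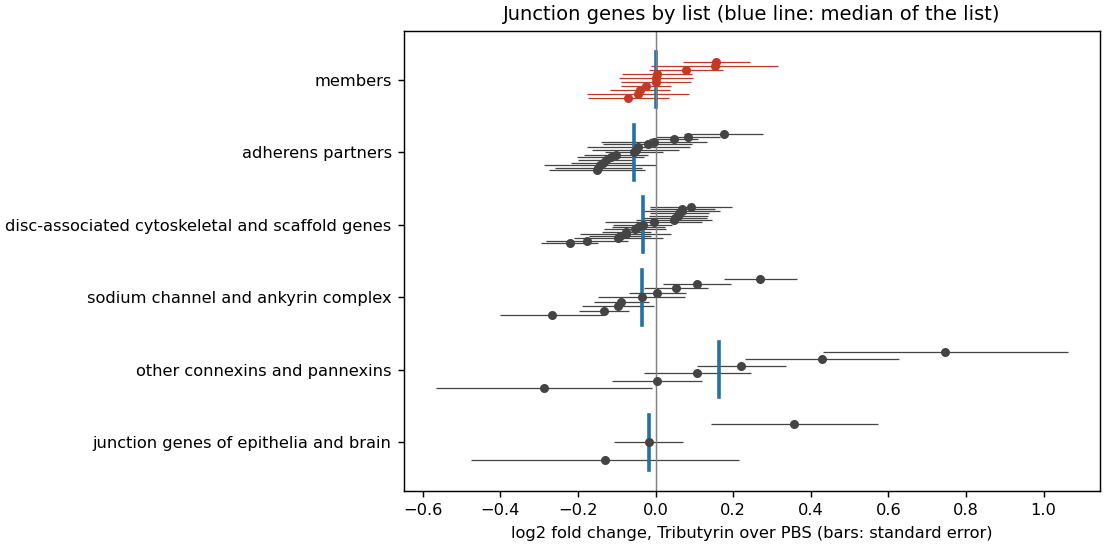
Log2 fold change, Tributyrin over PBS, of each tested gene of the 10 junction genes (red) and of the 5 other junction lists (grey), with standard errors and the median of each list (blue line). The medians run from -0.06 for adherens partners to 0.16 for the other connexins and pannexins, and no gene passed an FDR of 10%.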

How the data were processed

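Heart ventricle RNA of 6 WD-fed mice was sequenced as stranded mRNA libraries. The values used here are whole-number counts per Ensembl gene that the authors deposited without normalization, after adapter trimming, removal of poor and rRNA reads, STAR alignment and htseq-count. The submitters' processing notes name cutadapt 1.13, HTSeq 0.6.1p1, DESeq2 1.14.1 and the build mm10. Which annotation release was counted, and with which strand option, is not given in the sources used. No count stood on a line that names no gene (0 lines).

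Groups came from the sample titles. Names, positions and lengths were taken from GENCODE M21 (GRCm38), in which 54165 of 54232 identifiers matched. The main test was edgeR's quasi-likelihood test (edgeR 4.0.16, R 4.3.3) with TMM scaling, filterByExpr (minimum count 10, minimum total 15), no covariate and Benjamini-Hochberg adjustment over 14133 genes, at an FDR of 10%. DESeq2 1.42.0 and limma 3.58.1 were alternatives, beside other scalings, other filters, a block for the replicate number, and fits with each mouse left out in turn. RPKM is TMM-scaled CPM per kilobase of merged exons, and normalized counts are counts divided by DESeq2-type size factors. Intervals are 95% intervals of the edgeR coefficient and were not adjusted for the number of genes. Figures were drawn with matplotlib 3.10.9 (Python 3.11.15), and ratios and promoter windows were computed with pandas 2.3.3 and numpy 2.4.6. Only the count fits of edgeR, DESeq2 and limma-voom were tested on simulated counts, with changes larger than those estimated for the members. The ratios, overlaps, permutation tests and promoter searches were not.

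The 10 genes and all gene lists were chosen with earlier results of these data known. Of the other junction genes, the pair with the smallest unadjusted p and the pair with the highest RPKM in each list were named, with the genes of the ratios. In each marker list the gene with the highest RPKM and that with the largest change could be named. Exceptions to this rule are marked in the text, and some genes that it selects are not reported here. Other groups of the study were not analysed here.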

Additional observations from a re-analysis of the deposited data

How the results depend on the processing

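No member passed an FDR of 10% under any of the 15 alternatives (0 of 10 in each), and the estimate of *Dsg2* stayed above 0 in all 15. The estimates nearest 0 changed sign. With DESeq2-type size factors in edgeR the log2 fold change was -0.0012 for *Cdh2* and -0.0015 for *Tjp1*. With library size alone it was -0.0661 for *Dsc2*, -0.0684 for *Cdh2* and -0.069 for *Tjp1*, the median of the members was -0.069, and 1 member (*Jup*) had groups that did not overlap, as had 11.5% of all genes. With genes of a mean CPM of at least 5 it was -0.0005 for *Dsc2*, -0.0033 for *Cdh2* and -0.0034 for *Tjp1*. DESeq2 gave -0.0002 for *Cdh2* and -0.0004 for *Tjp1*, DESeq2 with a normal prior -0.0001 and -0.0003, and limma-voom -0.0045 and -0.0051. With the replicate number as a block they were -0.0054 and -0.005, and 2 genes of all tested passed an FDR of 10%. Same-numbered mice had correlations of their deviations of 0.272, 0.062 and 0.002, and those of differently numbered mice ran from -0.247 to 0.181. The labels state no pairing, and the main fit used none. Over all genes, 167 passed without a filter on low counts, 11 with DESeq2 and 9 with its prior, against 0 in edgeR with the filter (600 at an unadjusted p under 0.05). The edgeR fit without a filter had infinite prior degrees of freedom, against 6.31 in the main fit. The cause of these differences in the number of genes passing was not tested.

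Leaving out 1 mouse at a time gave 0 to 3 genes of all tested at an FDR of 10%, 0 to 2 members at an unadjusted p under 0.05 (389 to 1360 of all genes, the most without Tributyrin replicate 2), and a median of the members from -0.042 (without Tributyrin replicate 2) to 0.096 (without Tributyrin replicate 3). The log2 fold change ranged from -0.0387 to 0.1596 for *Dsp*, -0.1063 to 0.0145 for *Pkp2*, -0.0461 to 0.0011 for *Jup*, 0.0912 to 0.235 for *Dsg2*, -0.0654 to 0.0724 for *Dsc2*, -0.064 to 0.0972 for *Cdh2*, -0.1857 to 0.095 for *Ctnna3*, -0.2032 to 0.0034 for *Vcl*, -0.0678 to 0.3165 for *Gja1* and -0.0848 to 0.0962 for *Tjp1*. With 3 mice per group, the variance between mice behind the intervals was drawn in part from the trend over all genes. Counting error gave a relative SD of at most 3.68% on a member.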
